A study of Bos taurus with 6 samples.

Results

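The genes of the cytosolic ribosome were followed in 2 sorted cell populations of the endometrium of cows (Bos taurus), the side population (SP) and the main population (MP). They were taken as every row of the expression files whose symbol is RPL or RPS with a number and at most 1 added letter (or X), RPLP with a number, or RPSA. This gave 82 rows of 34733 named rows, 33 for the small (40S) and 49 for the large (60S) subunit. The gene table of RefSeq (assembly ARS-UCD2.0) lists 80 of them as protein coding and 2, RPL15P and RPS27P, as pseudogenes. Besides these 2, the rows RPS27L, RPL3L and RPL10L belong to paralogs, and RPL36A is listed at 2 loci, on chromosomes X and 15. The other 76 rows hold 31 proteins of the small and 45 of the large subunit. FAU, which encodes a ribosomal protein fused to a ubiquitin-like protein, falls outside the name pattern and is described with the other translation genes.

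SP cells pump out a Hoechst DNA dye and MP cells keep it. Per the labels' protocols, both were sorted from the collagenase-digested stromal preparation of luteal phase uteri collected at slaughterhouses, with dead cells gated out by propidium iodide. There are 3 SP and 3 MP libraries of mRNA, made with a kit that keeps strand. No label ties a replicate to an animal of its own. A p-value here therefore covers the spread among these samples alone, which may be technical. The word micro stands in the column names of MP but not of SP; its meaning is not given, so whatever it marks cannot be told apart from the population. No transgene, cell line or further treatment is named.

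A ribosome holds 1 copy of almost every ribosomal protein, so cells make these proteins in near equal numbers, and unassembled copies are degraded. Their mRNAs begin with a run of pyrimidines, the terminal oligopyrimidine tract, through which mTOR and the RNA-binding protein LARP1 control translation and stability of the whole family together. In growing cells these mRNAs are among the most abundant, and a few of the proteins also act in signalling to p53.

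The files give FPKM (fragments scaled by transcript length and library size) and no counts. Among low values, the commonest ratio of SP replicate 1 to SP replicate 2 was 1.6, held by 5.70% of the genes; against the other libraries the commonest ratio held 1.90% to 4.18%, so no depth was recovered and the depth is unknown. Pairs of SP libraries had Pearson r from 0.950 to 0.967 across genes on log2(FPKM + 1), MP pairs from 0.925 to 0.937 and mixed pairs from 0.736 to 0.880. Markers of several cell types differed between the populations. Of 14 endothelial markers tested, 13 rose in SP, and their summed level was 1722 to 2755 FPKM in SP and 192 to 1039 FPKM in MP. Of 12 stromal fibroblast markers, 11 fell in SP (290.2 to 485 FPKM in SP, 2964 to 11250 FPKM in MP), although the cells are labelled stromal, with DPT and HAND2 at a mean of 0.317 and 0.207 FPKM in SP and 11.7 and 8.41 FPKM in MP. Myeloid markers fell in 10 of 12, with sums of 123 to 146 FPKM in SP and 681 to 1234 FPKM in MP. Mast cell markers fell in 4 of 5, with sums of 14.8 to 34.0 FPKM in SP and 408 to 986 FPKM in MP. T and NK cell markers fell in 6 of 7, and 1 did not pass. Their sums did not follow this fall, with 2772, 918 and 334 FPKM in SP replicates 1 to 3, against 263, 670.2 and 499 FPKM in MP replicates 1 to 3. In SP replicates 1 and 2 the sum thus lay above that of every MP library. Since 6 of the 7 had all SP values below all MP values, these higher sums came from the remaining listed markers. They do not describe the set as a whole. B and plasma cell markers fell in 2 of 3 and pericyte and smooth muscle markers in 5 of 9, with sums of 1.76 to 5.10 and 335 to 528 FPKM in SP and of 8.602 to 168 and 1156 to 1926 FPKM in MP. None of 10 epithelial markers passed (196 to 1803 FPKM in SP, 1023 to 4705 FPKM in MP), nor did the 1 erythroid marker tested. Listed at 0 in every SP library were 1 T and NK cell, 1 B and plasma cell and 2 erythroid markers, and at 0 in every MP library 3 erythroid markers. The part of these cell types in the results on ribosomal protein genes was not tested. Fewer cells of a type and less RNA per cell cannot be told apart in such bulk libraries.

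Ribosomal protein genes as a family stood lower in SP. They took 17.8%, 19.9% and 17.7% of the summed FPKM in SP replicates 1 to 3 and 23.0%, 23.9% and 20.3% in MP replicates 1 to 3. Every SP share lay below every MP share, by a narrow margin between SP replicate 2 and MP replicate 3. In that library mitochondrially encoded genes took 23.4% of the sum, against 9.87% to 16.4% in SP and 10.5% and 14.6% in the other MP libraries. Without the mitochondrially encoded genes the shares were 20.2%, 22.1% and 21.1% in SP and 25.7%, 28.1% and 26.5% in MP, so the gap widened. The means were 21.1 ± 0.926% in SP and 26.7 ± 1.21% in MP (SD, n = 3 each). These are shares of length-scaled FPKM and not of reads.

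**Figure D1:**
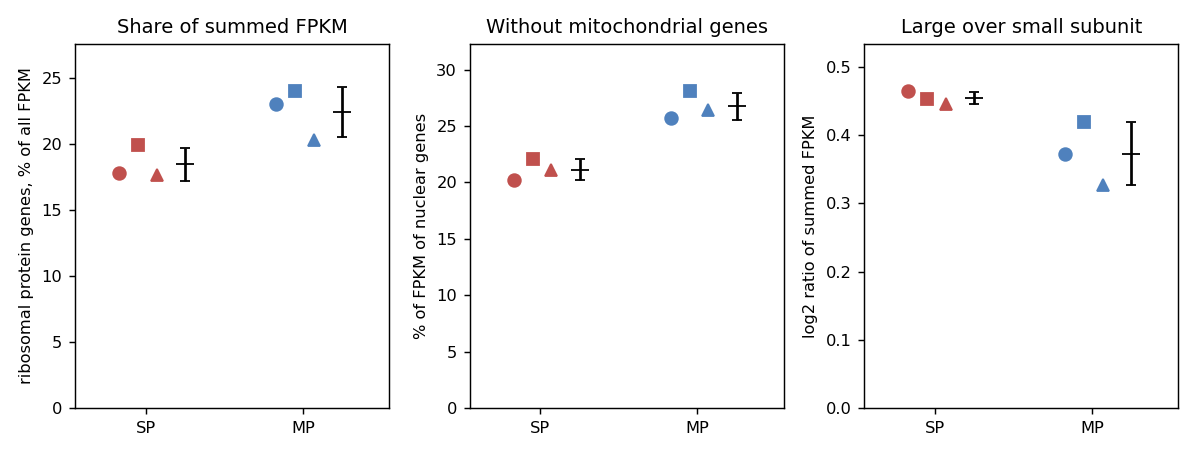
Each point is 1 library (circle, square and triangle for replicates 1, 2 and 3), with the mean and SD of 3 libraries in black. The left and middle panels give the percentage of summed FPKM in ribosomal protein genes, over all genes and without mitochondrially encoded genes (21.1% in SP and 26.7% in MP on average), and the right panel gives the log2 ratio of summed FPKM of large over small subunit genes, which is higher in all 3 SP libraries.

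Values of 3 libraries are given in the order of replicates 1, 2 and 3. The median member measured 1655, 1619 and 1309 FPKM across the SP libraries, against 2030, 2212 and 2055 FPKM across the MP libraries. SP replicate 3 was the lowest of the 6 libraries for 72 of 80 members, and MP replicate 2 was the highest for 47. SP replicate 3 also had the lowest summed FPKM over all genes, 647501, against 747321 to 963629 in the other libraries. As a share of that sum its ribosomal protein genes, at 17.7%, were close to those of SP replicate 1, at 17.8%. The median SD of a member over replicates was 0.26 in SP and 0.14 in MP on the log2 scale. The order of members within the family was alike in the populations (Spearman rho 0.957 between their mean levels, over 80 genes that share the same libraries).

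Gene by gene, 80 of the 82 rows reached 1 FPKM in at least 3 libraries and were tested with limma on log2(FPKM + 1). All 80 were above 1 FPKM in every library, so the filter did not fix any direction. The median log2 fold change was −0.50, against 0.01 over the 12127 genes tested, with 75 members below 0 and 5 above (49.7% of all genes were below 0). The 3 SP values all lay below the 3 MP values in 56 of the 80 members and above them in 1, RPL15P. Over all tested genes these shares were 26.5% lower and 28.3% higher, 54.8% together. The limma test, with Benjamini-Hochberg adjusted p under 0.05, called 13 members lower and 0 higher. Over all genes it called 18.7% lower and 20.5% higher (39.2% together), so the 13 of 80 are no larger a share than the background. The family's difference in SP was thus small for each gene and in the same direction in most of them, and only RPS26 and RPS28 reached a 2-fold change. The count of 13 dropped to 5 without any 1 of SP replicates 1, 2 and 3, to 2 without MP replicate 1 or 2 and to 3 without MP replicate 3, while the median stayed between −0.54 and −0.34. With each library rescaled to a sum of 1e+06, which moved the median of all genes to 0.20 and the calls over all genes to 3251 higher and 1525 lower, 7 members were lower and 1, RPL15P, higher, with a median of −0.28.

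**Figure D2:**
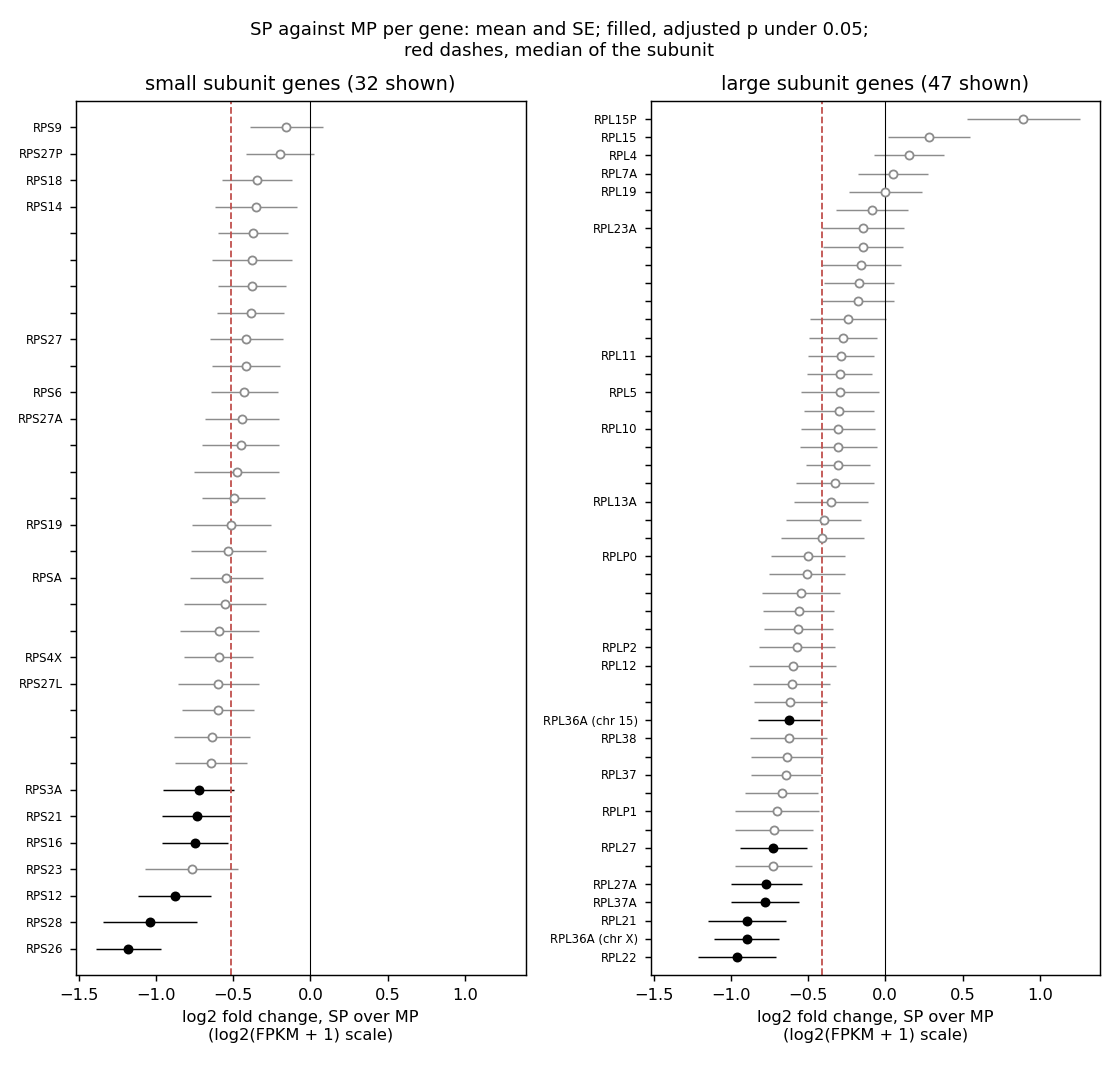
Log2 fold change of SP over MP (x axis) with its SE for 32 of the 33 small and all 47 large subunit genes tested, with names for those called or described, filled where the limma adjusted p is under 0.05. Most points lie left of 0, with RPS26 and RPL22 lowest in their subunits, and RPL15P, RPL15, RPL4, RPL7A and RPL19 are at or right of 0.

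Ribosomal protein genes lie in short loci, and the fold change of other genes varied with locus length (Spearman rho 0.217 over all tested genes). Among 1506 other genes with the shortest loci (up to 5184 bases, introns included) the median log2 fold change was −0.42, and it was 0.39 among 1506 genes of 73944 to 138101 bases. The median member locus was 3766.5 bases, and 54 members fell within the shortest class, with a median of −0.51; the 26 members with longer listed loci, some of which cover neighbouring genes, had −0.48. After a loess correction of each library for locus span, the median over members was −0.20, against 0.04 over all genes, with 4 members lower and 1 higher (17.1% and 19.4% of all genes, 36.5% together). For comparison by level, 65 other nuclear genes with a mean of at least 1000 FPKM had a median of −0.06, 13 of them called lower and 11 higher. The part of locus length in the lower values of ribosomal protein genes in SP was not tested.

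**Figure D3:**
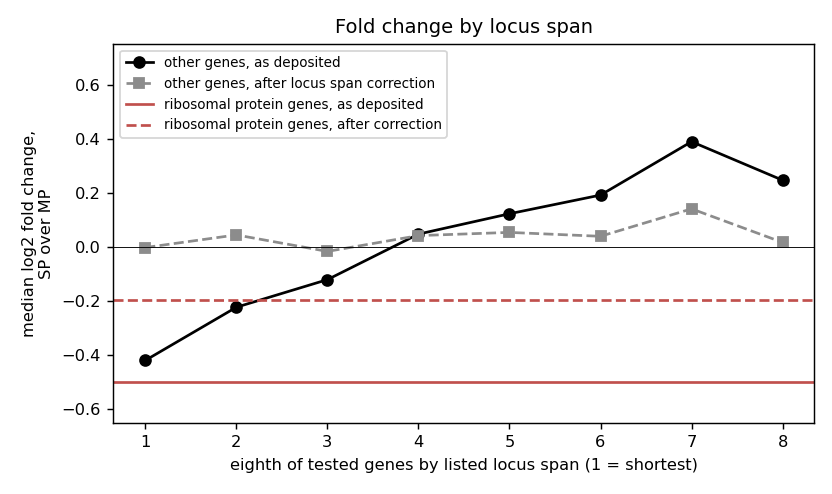
Median log2 fold change of SP over MP (y axis) in 8 classes of other tested genes ordered by listed locus span (x axis), as deposited (black) and after span correction (grey), with the median of the 80 ribosomal protein genes as red lines. The black line is lowest in the shortest class and the ribosomal protein genes, at −0.50 as deposited and −0.20 after correction, lie below the shortest class in both.

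In the small subunit the median log2 fold change was −0.51 over 33 genes, with 6 lower (RPS26, RPS28, RPS12, RPS16, RPS21 and RPS3A) and 27 not passing, a share near the 18.7% of all genes called lower. RPS26, a protein at the channel where mRNA leaves the subunit and a gene mutated in Diamond-Blackfan anaemia in humans (chromosome 5, 57279795 to 57282854; positions here are in build ARS-UCD1.2), measured 446, 489.9 and 389 FPKM across the SP libraries, against 1019, 952 and 1017 FPKM across the MP libraries. The groups lay far apart, with little spread within either. The log2 fold change was −1.18 ± 0.21 (SE; limma adjusted p = 0.00619), and it was called in all 19 alternatives tried (adjusted p from 0.00429 to 0.0277). No other member was called in all of them.

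RPS28, a very small protein near the same mRNA exit channel (chromosome 7, 16968061 to 16969193), measured 2999, 2599 and 2028 FPKM across the SP libraries, against 3798, 5026 and 7165 FPKM across the MP libraries. The groups did not overlap, but the MP libraries were spread widely and replicate 3 was the highest. Its log2 fold change was −1.04 ± 0.30 (SE; limma adjusted p = 0.0311; 12 of 19 alternatives gave a call, with limma adjusted p spanning 0.0156 to 0.150). RPS12, a protein of the head of the subunit (chromosome 9, 70976787 to 70980384), measured 3745, 3763 and 2688 FPKM across the SP libraries, against 6010, 6295 and 6229 FPKM across the MP libraries. It was the most abundant small subunit mRNA per length by its mean over all libraries, and its MP values were tightly grouped above all SP values (log2 fold change −0.88, SE 0.24, at a limma adjusted p of 0.0241; 13 of 19 alternatives gave a call, with limma adjusted p spanning 0.00737 to 0.110). RPS16, also of the head, averaged 1594 ± 159 FPKM in SP, against 2675 ± 143 FPKM in MP (mean with SD over 3 libraries a group), and its log2 fold change was −0.75, called in 11 of 19 alternatives. RPS21 had −0.74 and was called in 9 of 19 (limma adjusted p up to 0.348), and RPS3A had −0.72 and was called in 7 of 19 (up to 0.220). RPS23, which sits at the decoding centre, had a fold change of similar size (−0.77 ± 0.30 SE), but SP replicate 2, at 1210 FPKM, lay above MP replicate 1, at 1133 FPKM, and the test was not passed (limma adjusted p = 0.0734).

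RPS6, RPSA, RPS4X, RPS27A, RPS14 and RPS19, listed for other known roles, did not pass. RPS6, which S6 kinases phosphorylate downstream of mTOR, measured 1086, 1133 and 898 FPKM across the SP libraries, against 1444, 1446 and 1291 FPKM across the MP libraries. RPSA, which also gives rise to the laminin receptor, measured 1657, 1402 and 1118 FPKM across the SP libraries, against 2006, 2118 and 1895 FPKM across the MP libraries. For both genes all SP values lay below all MP values, and the test was not passed (limma adjusted p = 0.147 and 0.1002). The X-linked RPS4X and the ubiquitin fusion gene RPS27A likewise did not overlap (log2 fold change −0.59 and −0.44, limma adjusted p = 0.0678 and 0.171). RPS19, the gene most often mutated in Diamond-Blackfan anaemia, had −0.51 and RPS14, lost in the 5q- syndrome of humans, −0.35. RPS27, the second most abundant small subunit gene, averaged 3799 ± 648 FPKM in SP, against 5020 ± 340 FPKM in MP (mean with SD over 3 libraries a group), without passing (limma adjusted p = 0.194). Fold changes nearer to 0 included those of RPS9, with 1111 ± 208 FPKM in SP and 1225 ± 115 FPKM in MP (−0.15), and of RPS18 (−0.35).

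In the large subunit the median was −0.41 over 47 genes, with 7 lower and 40 not passing, a share no larger than the 18.7% of all genes called lower. The lower genes were RPL22, RPL21, RPL37A, RPL27A, RPL27 and both loci of RPL36A. RPL22, an RNA-binding ribosomal protein that translation as such can do without and that is needed for T cell development in the mouse (chromosome 16, 47144342 to 47151653), measured 533, 828 and 551 FPKM across the SP libraries, against 1115, 1327 and 1216 FPKM across the MP libraries. SP replicate 2 was the highest of the SP libraries and still below every MP library (log2 fold change −0.96, SE 0.25, at a limma adjusted p of 0.0213; 14 of 19 alternatives gave a call, with limma adjusted p spanning 0.0195 to 0.0792). RPL21 followed the same pattern, with 1382, 1957 and 1308 FPKM across the SP libraries, against 2468, 3123 and 2965 FPKM across the MP libraries (log2 fold change −0.90, SE 0.25, at a limma adjusted p of 0.0270; 12 of 19 alternatives gave a call, with limma adjusted p spanning 0.0206 to 0.0977). RPL36A on the X chromosome (50819016 to 50822415) measured 388, 435 and 422 FPKM across the SP libraries, against 836, 683 and 809.8 FPKM across the MP libraries, with little spread in SP (log2 fold change −0.90, SE 0.21, at a limma adjusted p of 0.0146; 17 of 19 alternatives gave a call, with limma adjusted p spanning 0.0140 to 0.0831). RPL37A, RPL27A and RPL27 had −0.78, −0.77 and −0.72 and were called in 12, 9 and 9 of 19 alternatives.

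**Figure D4:**
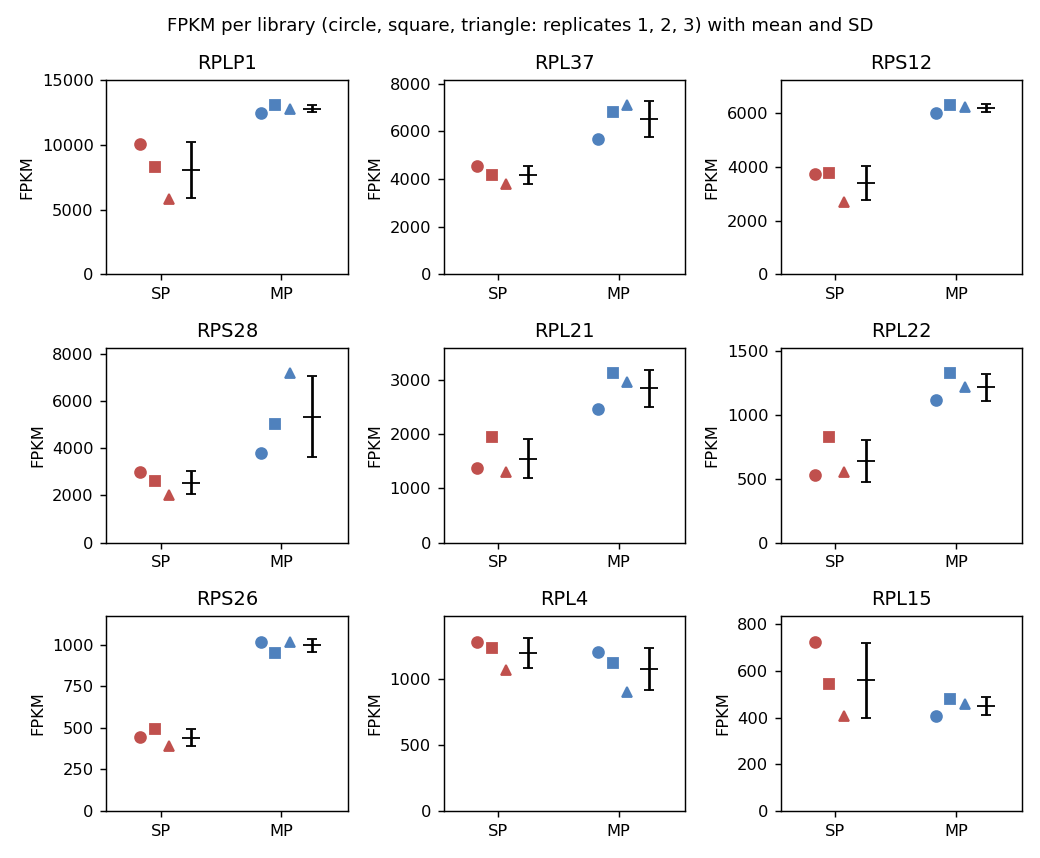
FPKM (y axes, from 0) of 9 ribosomal protein genes in each library, SP in red and MP in blue, with mean and SD of 3 libraries. RPS26, RPS12, RPL21, RPL22, RPL37, RPLP1 and RPS28 have all SP points below all MP points, while the points of RPL4 and RPL15 overlap.

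The stalk of the large subunit recruits the translation factors that hydrolyse GTP and is built from RPLP0, RPLP1 and RPLP2 with RPL12 at its base. RPLP1 (chromosome 10, 16343828 to 16345976) was the most abundant member of all per length, with 10085, 8260 and 5814 FPKM across the SP libraries, against 12494, 13063 and 12783 FPKM across the MP libraries. The MP libraries lay close together and above the SP libraries, which were spread widely with replicate 3 the lowest, and the test was not passed (log2 fold change −0.70, SE 0.27, at a limma adjusted p of 0.0734; 3 of 19 alternatives gave a call, with limma adjusted p spanning 0.0150 to 0.389). RPLP0, RPLP2 and RPL12 had −0.50, −0.57 and −0.60, and none passed. RPL5 and RPL11, which with 5S rRNA form the particle that can bind and inhibit MDM2, the ubiquitin ligase of p53, had −0.30 and −0.29 (limma adjusted p = 0.372 and 0.311; 95% intervals −0.88 to 0.29 and −0.79 to 0.21). RPL10, which joins late in maturation of the subunit, RPL13A, known for a role outside the ribosome in interferon-gamma treated human myeloid cells, and RPL38, needed for translation of Hox mRNAs in mouse embryos, had −0.30, −0.35 and −0.63 without passing. The abundant genes RPL37 and RPL23A averaged 4173 ± 364 and 5649 ± 1282 FPKM in SP, against 6535 ± 748 and 6180 ± 948 FPKM in MP (mean with SD over 3 libraries a group). Of 10 proteins around the exit tunnel of the nascent chain, RPL22 passed the test and 9 did not, and 6 had all SP values below all MP values (median −0.46). Over all genes 18.7% were called lower and 26.5% had all SP values below all MP values. In the whole family the latter held for 56 of 80 members.

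A small group of large subunit genes had a log2 fold change at or above 0. RPL4, a protein that lines the exit tunnel, measured 1280, 1228 and 1064 FPKM across the SP libraries, against 1204, 1116 and 899 FPKM across the MP libraries. RPL15, a core protein of the large subunit (chromosome 27, 42051427 to 42055369), measured 725, 545 and 408 FPKM across the SP libraries, against 406, 480 and 459 FPKM across the MP libraries. For both genes the groups overlapped, with SP replicate 1 the highest library. Neither passed (log2 fold change 0.16 ± 0.23 and 0.28 ± 0.26 SE, limma adjusted p = 0.601 and 0.417). RPL7A and RPL19 had 0.05 and 0.00, with 95% intervals from −0.47 to 0.58 and from −0.54 to 0.54.

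Setting each gene against the median member of its own library, a comparison chosen after seeing the data, asks which members part from the family. RPL15 and RPL4 were then higher in SP, with log2 differences of 0.75 (SE 0.20) and 0.62 (SE 0.19), and RPS26 was lower, with −0.71 (SE 0.18). Their limma adjusted p values were 0.0187, 0.0271 and 0.0137, while RPL7A and RPL19 did not pass (limma adjusted p = 0.0528 and 0.0626). The adjustment ran over all 12127 genes, and the shift itself raised the number called higher among them from 2490 to 4457. These values were not adjusted among the members alone, so they do not settle which members part from the family. The pseudogene RPL15P was higher too, which makes 3 members higher and 1 lower, against 36.8% higher and 8.67% lower of all genes under this shift (45.4% together). Without overlap between the groups, 20 members were higher, 17 of the large and 3 of the small subunit, and 12 lower, 7 large and 5 small. Over all genes these shares were 44.2% and 12.4%, 56.6% together.

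Large subunit genes together stood slightly higher relative to small subunit genes in SP. The summed FPKM of the 49 large subunit rows was 1.38, 1.37 and 1.36 times that of the 33 small subunit rows in SP replicates 1 to 3, and 1.29, 1.34 and 1.25 times in MP replicates 1 to 3. On the log2 scale the ratio was 0.454 ± 0.00907 in SP and 0.373 ± 0.0463 in MP (SD, n = 3 each), with no overlap. Without RPLP1 it was 0.292 to 0.313 in SP and 0.146 to 0.250 in MP. Without RPS28, whose level in MP replicate 3 was so high, it was 0.508 to 0.532 in SP and 0.442 to 0.503 in MP. The groups still did not overlap, though the lowest SP library (replicate 3) and the highest MP library (replicate 2) nearly met. The medians told less: the large minus small difference of median log2 levels was −0.385, −0.325 and −0.429 in SP and −0.454, −0.468 and −0.389 in MP, and these overlap.

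The copies outside the core set were low. RPL10L, a testis-expressed retrocopy in humans, is listed at 0 in all 6 libraries, and RPL3L, a paralog of striated muscle, did not exceed 0.108 FPKM, so neither was tested. RPS27L, a paralog induced by p53 in human cells, measured 95.4, 126 and 86.4 FPKM across the SP libraries, against 136, 200 and 133 FPKM across the MP libraries (log2 fold change −0.59, limma adjusted p = 0.104). The pseudogene RPL15P measured 50.6, 28.9 and 20.5 FPKM across the SP libraries, against 11.7, 18.5 and 19.99 FPKM across the MP libraries, or 5.04% to 6.98% of the level of RPL15 in SP and 2.87% to 4.35% in MP (log2 fold change 0.89, SE 0.37, at a limma adjusted p of 0.0860). RPS27P stood at 2.30% to 2.68% of RPS27 in SP and 2.096% to 2.32% in MP. The RPL36A row of chromosome 15 (53690312 to 53690723) stood at 13.9% to 15.7% of the X-linked row in SP and 12.1% to 12.7% in MP, and was also lower (−0.62 ± 0.20 SE, limma adjusted p = 0.0410). This call was made in 9 of 19 alternatives, over which the log2 fold change was as small as −0.05 (limma adjusted p up to 0.866). Reads of such near-identical copies may be split or misplaced, and how the authors assigned them was not stated in any source at hand. The loci of 39 members overlap another listed gene, most often a small nucleolar RNA (58 of 90 overlapping rows, of which 45 are listed at 0 in every library and 0 have a value in all).

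Other genes that serve translation were taken from lists of names. FAU had a log2 fold change of −0.37 without passing (limma adjusted p = 0.341). Of 5 paralogs outside the name pattern, RPL22L1 and RPL26L1 fell in SP. RPL22L1, the paralog of RPL22, measured 52.9, 45.6 and 54.3 FPKM across the SP libraries, against 154, 95.6 and 89.0 FPKM across the MP libraries, all SP values lying below all MP values (log2 fold change −1.09, SE 0.27, at a limma adjusted p of 0.0169). RPL26L1 had −0.95 (limma adjusted p = 0.0205). They were called in 16 and 15 of 19 alternatives (limma adjusted p up to 0.0688 and 0.0701), and neither was called after the correction for locus span. Of 11 elongation factors and associated proteins tested, EEF1D, an exchange factor for EEF1A, fell (−0.74 ± 0.24 SE, limma adjusted p = 0.0410; 11 of 19 alternatives gave a call, with limma adjusted p spanning 0.0297 to 0.139) and 10 did not pass, with a median of −0.44. EEF1A1, itself a mRNA with an oligopyrimidine start, measured 2029, 1767 and 1215 FPKM across the SP libraries, against 1407, 1443 and 1299 FPKM across the MP libraries, with overlapping groups.

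Of 28 initiation factors tested 7 rose in SP and 0 fell (median 0.23), where 20.5% of all genes were called higher and 18.7% lower. Over the 19 alternatives 4 to 11 rose and 0 to 1 fell, with 8 higher and 1 lower after the correction for locus span. The smallest p was that of the scaffold EIF4G1, with 74.7, 63.0 and 67.8 FPKM across the SP libraries, against 19.1, 12.5 and 23.9 FPKM across the MP libraries. Its SP values were far above all MP values (log2 fold change 1.88, SE 0.27, at a limma adjusted p of 0.00350). EIF3A, EIF5 and the poly(A)-binding protein PABPC1 rose by 1.54, 1.32 and 1.21. Of 50 ribosome biogenesis factors 18 rose and 0 fell, against 20.5% and 18.7% of all genes (median 0.74; 12 to 29 rose and 0 fell in each of the 19 alternatives). Among them RRP12, which helps export both subunits, rose by 1.92, TAF1D, a subunit of the RNA polymerase I selectivity factor, by 1.91, GNL3 (nucleostemin) by 1.74 and NOLC1, a nucleolar phosphoprotein, by 1.67 on the log2 scale. After the correction for locus span 20 rose and 0 fell.

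Among 20 genes of mTOR signalling, LARP1 and LARP4, and MYC and its partners, 8 rose and 2 fell (median 0.86), against the same 20.5% and 18.7% of all genes, and over the 19 alternatives 4 to 13 rose and 0 to 3 fell. LARP1, which binds oligopyrimidine mRNAs, measured 19.96, 12.6 and 20.05 FPKM across the SP libraries, against 1.67, 1.43 and 2.70 FPKM across the MP libraries. The groups lay widely apart (log2 fold change 2.66, SE 0.28, at a limma adjusted p of 0.00142; all 19 alternatives gave a call, with limma adjusted p spanning 0.00114 to 0.00887). RICTOR, a subunit of mTOR complex 2, rose by 2.02, DEPTOR, an inhibitor of mTOR, by 1.08 and TSC1, which restrains mTOR complex 1, by 1.01. These 4 were named for having the smallest p in the list, and the 2 genes that fell are not named here. After the correction for locus span 9 rose and 1 fell. Any part of these genes in the levels of ribosomal protein genes, whose median was −0.50, was not tested.

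**Figure D5:**
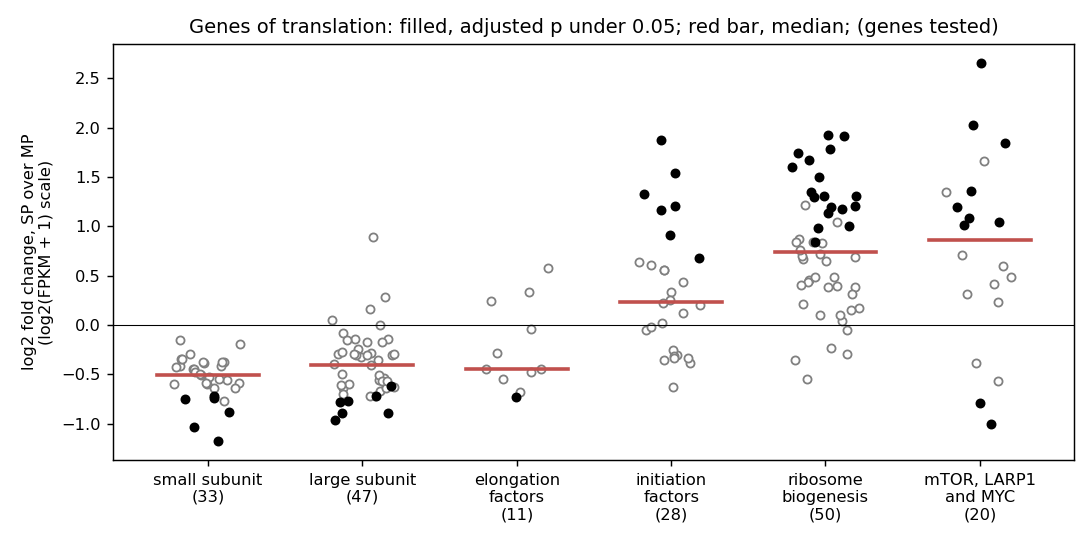
Log2 fold change of SP over MP (y axis) for each tested gene of 6 groups, filled where the limma adjusted p is under 0.05, with the median as a red bar. Ribosomal protein genes (medians −0.51 and −0.41) and elongation factors (−0.44) lie mostly below 0, and ribosome biogenesis factors (0.74) mostly above.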

How the data were processed

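Per the file headers, the deposited values are FPKM, 1 library per file, with no scaling between libraries stated. Per the submitters' processing notes, reads were handled with cutadapt 2.5 and HISAT2 2.1.0 and the build was ARS-UCD1.2. No source used here gives the software behind the FPKM, the annotation version or the strand setting. Each sample's title gave its group and number. The row with no gene identifier (0.185% to 1.91% of the values) was left out. Starts were counted from 1 by adding 1 to the files' starts; loci include introns. Symbols of all 82 members and 84.0% of all rows matched the RefSeq gene table (ARS-UCD2.0), used for names and gene classes. A floor of 1 FPKM in 3 libraries left 12127 genes. Their log2(FPKM + 1) values were compared by limma 3.58.1 (R 4.3.3, two-sided, eBayes with trend, Benjamini-Hochberg over all genes, threshold 0.05). A run of the fit on simulated data drew the noise of each gene independently. It therefore does not bear on shifts that members share within a library. The log2(FPKM + 1) scale understates changes of low genes. With 3 libraries a group, 0.1 is the smallest p an exact permutation test can give, so none is printed. The members and gene lists were chosen with earlier results of these data known. Named members were, per subunit, the 5 with the highest and 5 with the lowest fold change and the 3 most abundant, those of 4 role lists and those not tested; in other lists, up to 4 called genes by smallest p (the most abundant 2 where none was called). EEF1A1, DPT, HAND2, RPL27, RPS21, RPS3A and the chromosome 15 row of RPL36A were named outside this rule, after their values were seen. The 19 alternatives changed the pseudocount, filter, scaling, locus span, variance model, replicate block or libraries; a shift to the median member was chosen after seeing the data and is not among them. Promoter and protein sequences were not used here. Some named genes are not reported here.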

Additional observations from a re-analysis of the deposited data

How the results depend on the processing

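The median log2 fold change of ribosomal protein genes was negative under every alternative run, between −0.54 and −0.20. It moved by more than the spread between replicates when libraries were rescaled to a sum of 1e+06 (−0.28), under quantile normalization (−0.29), cyclic loess (−0.24) and locus span correction (−0.20), and without SP replicate 3 (−0.34; fits without 1 library ran from −0.54 to −0.34). The count of 13 members called lower was 4 with no filter on low values, 20 at a mean of at least 5 FPKM, 7 after rescaling to a sum of 1e+06, 22 after rescaling without mitochondrial and ribosomal protein genes, 4 after locus span correction, 1 relative to the median member, and 2 to 5 without 1 library. Over all genes, 2269 were called lower in the main fit. The number was 2070 with no filter, 1521 at a mean of at least 5 FPKM and 1525 after rescaling to 1e+06. It was 1887 after rescaling without mitochondrial and ribosomal protein genes and 2074 after locus span correction. In the fit rescaled without mitochondrial and ribosomal protein genes, 22 of 80 members were thus a larger share than 1887 of 12127 genes. Members called higher numbered 1 after rescaling to 1e+06, 1 after rescaling without mitochondrial and ribosomal protein genes, 1 after span correction and 3 relative to the median member. Over all genes the same settings called 3251, 2565, 2350 and 4457 higher. The cause of these changes was not tested. Fits without 1 library hold fewer libraries, and the filter settings change the number of genes tested. With the replicate number as a block 8 members were lower. The deviations of same-numbered libraries correlated at 0.105, 0.533 and −0.0854, and those of libraries with different numbers at −0.42 to 0.28. These values do not settle whether equal numbers mark pairs, and the main fit did not treat them as pairs. The column names carry the numbers 1, 2 and 4 in both populations, but no label says that they mark a shared animal. Over all genes, fits without 1 library called 1126 to 1881 lower and 1056 to 2574 higher, and the fit relative to the median member 1051 lower and 4457 higher. The share of summed FPKM in SP minus MP was −3.95 percentage points and −5.60 without mitochondrially encoded genes. FPKM without counts gives no counting error, and 3 libraries per group limit what a single gene can show.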
